A study of Rattus norvegicus with 6 samples.

Results

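The ribosomal protein genes encode the protein part of the cytosolic ribosome, and they were followed here in cultures of rat tendon stem/progenitor cells, which are precursors that reside in tendon. Members were chosen by name and biotype: a protein-coding row of the deposited table whose gene name follows the ribosomal protein pattern (Rpl or Rps with a number, Rplp0 to Rplp2, or Rpsa). The family was selected for study with results of the same comparison in view, so its fold changes are given as a description and without p-values. The rule found 102 of the 33300 rows of the table, under 82 different gene names, because 10 names occur on several rows (30 rows in all). Of these rows 36 carry small-subunit and 66 large-subunit names. Control cells (3 libraries) were cultured for 7 days in F12 medium, and NAC cells (3 libraries) for 7 days in F12 with 500 uM N-acetyl-L-cysteine, a thiol antioxidant and cysteine source. The labels give tendon as the tissue of all 6 libraries, enter mesenchymal stem cells under cell line, and enter tenogenic differentiation under genotype. Nothing in them tells whether libraries of a group came from separate animals or cultures, so the spread behind each p-value may be technical.

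A cytosolic ribosome joins a small subunit, which reads the messenger RNA, to a large subunit, which forms the peptide bond. Ribosomal proteins are made in roughly matched amounts, and their messenger RNAs are short, abundant and coordinately controlled. Most begin with a C followed by a run of pyrimidines, the 5' terminal oligopyrimidine (TOP) motif, through which mTORC1 and the RNA-binding protein LARP1 control their translation and stability. The same family has left many processed copies in mammalian genomes, whose sequence can be nearly identical to that of the parent gene. A read from such a messenger RNA can therefore match several rows of an expression table.

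The 50 bases around the annotated start are printed for 8 genes described below, to show the motif for which the family is known and annotated starts without it. Each runs from 30 bases before the RefSeq start to 20 bases from it in GRCr8, on the strand of the gene. Capitals mark the pyrimidine run where a C with at least 4 further pyrimidines begins at the first transcribed base. The first 3 hold such a run at the annotated start and the last 5 do not. In Rpl13a a run of pyrimidines stands just before that start. Whether the annotated starts are those used in these cells was not tested.
Rps18, chr20:4933715-4933764 (+): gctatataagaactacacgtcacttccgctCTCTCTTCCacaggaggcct
Rplp1, chr8:71290853-71290902 (-): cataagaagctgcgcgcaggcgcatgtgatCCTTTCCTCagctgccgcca
Rps27, chr2:177964587-177964636 (-): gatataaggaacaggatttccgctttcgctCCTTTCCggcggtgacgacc
Rpl3, chr7:113507971-113508020 (-): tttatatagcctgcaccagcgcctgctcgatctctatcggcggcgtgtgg
Rpl13a, chr1:104748894-104748943 (-): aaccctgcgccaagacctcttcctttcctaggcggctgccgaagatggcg
Rps19, chr1:89608658-89608707 (+): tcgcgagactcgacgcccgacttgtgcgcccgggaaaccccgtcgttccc
Rpl22l1, chr2:113683166-113683215 (+): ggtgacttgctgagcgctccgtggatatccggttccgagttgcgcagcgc
Rps27l, chr8:76443628-76443677 (+): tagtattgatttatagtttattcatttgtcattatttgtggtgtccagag

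A RefSeq promoter was matched for 61 of the 82 names. A pyrimidine run starting at the first base stood in 34.4% of these 61 promoters and in 42.2% of the 45 whose gene reached a mean of 100 FPKM (fragments per kilobase, scaled to the depth of the library). It stood in 2.63% of all 33469 promoters and in 2.61% of the promoters of the other tested genes. With the start allowed to lie up to 5 bases away, the shares were 55.7%, 66.7%, 17.0% and 17.3%. The letters CTTCCG, searched on both strands of the 300-base window, were found in 52.5% of the members' promoters, in 16.6% of all promoters and in 32.7% of those of other tested genes. TATAAA was found in 13.1%, 14.2% and 6.24% of the same sets, GCCATCTT in 6.56%, 3.17% and 5.91%, and GGGCGG in 57.4%, 33.1% and 65.1%. A match describes the letters in these windows and does not show a site in use. Likewise, the lack of a run at an annotated start does not show a messenger RNA without the motif.

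Depth was 12487215 to 14941949 reads per library, as whole numbers worked out of the deposited values. The authors' scaling divided each library by a total that differed from this sum of reads by a factor of 1.03 ± 0.0122 in Control and 0.916 ± 0.00812 in NAC (SD, n = 3 each). Since this factor separates the groups, fold changes and calls are given as deposited and again after rescaling to library totals, while FPKM values are those deposited. Tendon and fibroblast markers were abundant: all 11 reached a mean of 1 FPKM, and their summed level was 10073 to 10259 FPKM in Control and 14858 to 15921 FPKM in NAC. The tendon regulators Scx, Mkx and Tnmd were at 12.5, 5.28 and 1.41 FPKM in Control. Of 7 macrophage and leukocyte markers 3 reached 1 FPKM (summed level 23.2 to 26.5 FPKM over the 6 libraries), with Ptprc at 0 in all. No endothelial or red cell marker reached 1 FPKM, and of the muscle markers Acta1 and Des did. In bulk samples, fewer cells of a type and less RNA per cell cannot be told apart.

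Ribosomal protein genes took a similar share of the reads in both groups. The 102 rows held 1.73%, 1.75% and 1.70% of all reads in Control 1 to 3 and 1.72%, 1.72% and 1.74% in NAC 1 to 3. The group means were 1.726 ± 0.0241% and 1.728 ± 0.0150% (SD, n = 3), a difference of 0.00178 percentage points, and the groups overlapped. With the reads of 240 further rows described as cytosolic ribosomal proteins, the shares were 1.996 ± 0.0454% and 1.985 ± 0.0243%. The summed FPKM as deposited behaved otherwise. It was 24266, 25207 and 23887 in Control and 27625, 27645 and 27631 in NAC, so that every NAC library lay above every Control library. Over all rows of the table the summed FPKM was 435798 ± 7313 in Control and 477340 ± 77.9 in NAC (SD, n = 3).

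**Figure D1:**
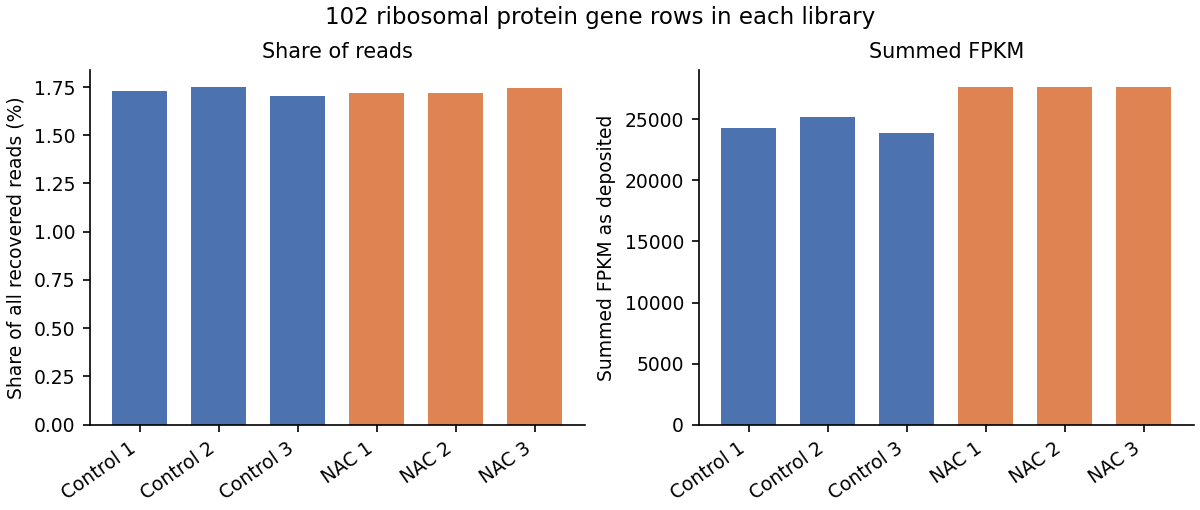
Share of all recovered reads (left, %) and summed FPKM as deposited (right) of the 102 ribosomal protein gene rows, with 1 bar per library, Control in blue and NAC in orange. The shares of reads lie between 1.70% and 1.75% in all 6 libraries, while the summed FPKM of each NAC library is above that of each Control library.

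The family spanned a wide range of levels. Of the 102 rows 57 had a mean of at least 100 FPKM, 28 lay between 1 and 100 FPKM, and 17 lay under 1 FPKM, the minimum for testing. The rows next to that minimum were an Rpl39 row at 1.26 FPKM and an Rpl37 row at 0.975 FPKM. Rpl10a, Rpl23a and Rpl31l3 had no read in any library. Rows outside the name rule described as L10a and L23a held 1550 and 1129 reads over the 6 libraries. These empty rows are not read as absence of the messenger RNA, and whether its reads were counted on other rows was not tested. The 57 abundant rows had a median Control level of 422 FPKM, and 11 members stood among the 100 most abundant genes of the Control cells and 43 among the first 200. Member rows had a median length of 534 bases, against 2163 bases for all tested genes. The lengths ran from 153 to 5151 bases, and FPKM divides reads by this length. Rpl7, the longest row, held 4730 to 5398 reads per Control library and yet lay under 100 FPKM.

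The 8 most abundant members in Control were Rpl13a, Rplp0, Rps18, Rps16, Rpl41, Rpsa, Rps20 and Rps14. Rpl13a, which besides its place in the large subunit takes part in translational silencing of inflammatory messages, was at 861 ± 34.8 FPKM in Control (SD, n = 3). Rplp0, the base of the acidic stalk of the large subunit, followed at 846 ± 16.7 FPKM, and the ranges of these 2 neighbours overlapped. Rps18, a protein of the small-subunit head, was at 766 ± 44.8 FPKM, and Rps16 at 738 ± 67.4 FPKM. Rpl41, the shortest protein of the ribosome, was at 695 ± 9.50 FPKM and Rpsa, known also as the laminin receptor, at 689 ± 28.6 FPKM. Rps20 was at 652 ± 17.8 FPKM and Rps14 at 649 ± 19.1 FPKM, and the ranges of neighbours in this order from Rps18 to Rps14 overlapped.

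As deposited, most members were higher with NAC by a small and similar amount. Among the 85 tested members the median log2 fold change was 0.17 (quartiles 0.11 and 0.22), with 75 members above 0, against a median of -0.0063 over all 12733 tested genes. By limma, with p-values adjusted over the 12733 tested genes (Benjamini-Hochberg), 31 members were called higher and 2 lower (adjusted p under 0.05), where 6.08% of all tested genes were called higher and 2.72% lower. The NAC libraries lay above all Control libraries for 50 members and below them for 2, where 16.7% and 15.9% of all tested genes did so. Since the family was chosen on this contrast, nothing is read from these counts. With 1 library left out, the number called higher was 4 (Control 1), 36 (Control 2), 4 (Control 3), 4 (NAC 1), 3 (NAC 2) and 8 (NAC 3), while the median stayed between 0.15 and 0.20 on the log2 scale. The shares of all tested genes called in these fits are not given, so the change in count is not read as particular to the family.

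After rescaling to library totals the shift of the family was gone. The median log2 fold change of the same 85 members was -0.0023 (quartiles -0.065 and 0.055), with 40 members above 0, and 61 members lay within 0.1 of 0. The median of all tested genes then lay at -0.16, so the rescaling moved both by a similar amount. Under this scaling 3 members were called higher and 5 lower by limma, where 3.67% of all tested genes were called higher and 29.2% lower. The NAC libraries lay above all Control libraries for 6 members and below them for 7, where 5.73% and 44.6% of all tested genes did so. Leaving out a library gave 2 to 5 members called higher, with 5 without Control 2, and 2 to 4 called lower, with 2 without Control 3 or NAC 2 and 3 without Control 1, Control 2 or NAC 3. Here too the shares of all tested genes called in these fits are not given. Which of the scalings is nearer to the amount of each RNA per cell was not tested.

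As deposited, the median over the abundant members lay lower in each Control library than in each NAC library. Over the 57 members of at least 100 FPKM, the median deviation from each gene's own mean on the log2 scale was -0.096, -0.050 and -0.13 in Control 1 to 3 and 0.10, 0.084 and 0.090 in NAC 1 to 3 as deposited. By library totals the same medians lay between -0.027 and 0.018 in all 6 libraries. A median does not show that each row moved so: Rps27a ran from 237 to 416 FPKM in Control and from 219 to 584 FPKM in NAC. Both subunits gave similar values: the median log2 fold change was 0.18 for 24 small-subunit and 0.18 for 33 large-subunit rows as deposited, and 0.0012 and 0.0088 by library totals. Other genes of at least 100 FPKM (618 genes) had medians of 0.10 and -0.070 in the 2 scalings. Among those, 144 genes shorter than 1000 bases had medians of 0.072 and -0.10, and 474 longer genes had medians of 0.12 and -0.052. For 30 abundant members a pyrimidine run lay within 5 bases of the annotated start. Their medians were 0.19 as deposited and 0.013 by library totals. The 15 without one there had 0.15 and -0.025.

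**Figure D2:**
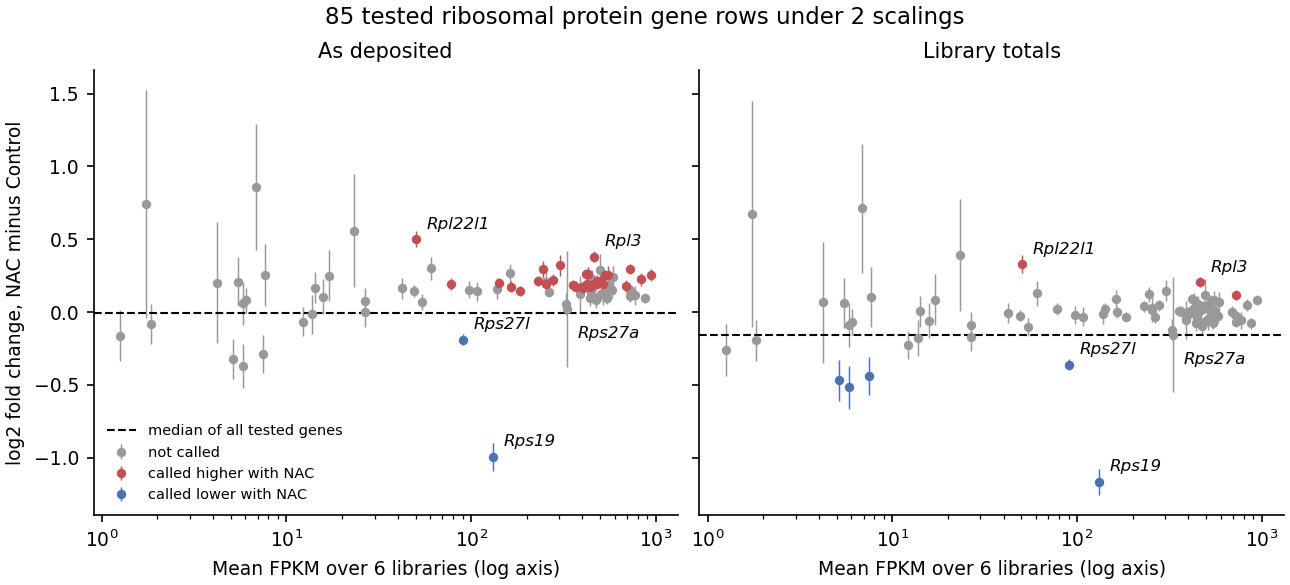
log2 fold change (NAC minus Control, on log2 of FPKM plus 1, bars are standard errors) of the 85 tested members against their mean FPKM over 6 libraries (log axis), as deposited (left) and by library totals (right). The abundant members form a narrow band near 0.17 on the left and near 0 on the right, the dashed median of all tested genes is at -0.0063 and -0.16, and Rps19 lies far below the band in both.

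Among the most abundant genes, the values by library show the size of the shift beside the spread. Rpl13a was at 847, 901 and 836 FPKM in Control and 1017, 1048 and 1017 FPKM in NAC, a log2 fold change of 0.26 ± 0.041 (SE) as deposited and 0.081 ± 0.036 by library totals. Rps18 was at 744, 817 and 736 FPKM in Control and 887, 896 and 896 FPKM in NAC, with log2 fold changes of 0.22 ± 0.048 and 0.049 ± 0.042. For both genes the deposited groups did not overlap, and by library totals the groups of Rps18 did. Rpsa was at 689, 718 and 661 FPKM in Control and 779, 752 and 763 FPKM in NAC, a log2 fold change of 0.15 ± 0.041 as deposited and -0.025 ± 0.038 by library totals. Rps16 and Rpl41 had deposited log2 fold changes of 0.12 ± 0.065 and 0.11 ± 0.040 and lay on the other side of 0 by library totals, at -0.058 ± 0.059 and -0.065 ± 0.041, and neither was called in either scaling. Rps14, which contacts the messenger RNA channel of the small subunit, had 0.18 ± 0.041 as deposited and 0.0031 ± 0.041 by library totals.

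The stalk of the large subunit, which recruits elongation factors, is built from Rplp0, Rplp1 and Rplp2. Rplp0 was at 856, 855 and 827 FPKM in Control and 905, 883 and 926 FPKM in NAC. Its groups did not overlap in either scaling, but in opposite order: the log2 fold change was 0.096 ± 0.036 as deposited and -0.078 ± 0.037 by library totals, and it was called in neither. Rplp1 was at 533, 507 and 473 FPKM in Control and 580.0, 595 and 633 FPKM in NAC, with log2 fold changes of 0.26 ± 0.056 and 0.083 ± 0.058. Rplp2 had at most 1 read in any library, while 4 other rows described as P2 held the other P2 reads. Whether these reads came from Rplp2 was not tested. Together the P2 rows gave 56.3, 139 and 80.6 RPM (reads per 1000000 reads of the library) in Control and 56.8, 95.7 and 75.8 in NAC, more variable between libraries of a group than the other stalk genes.

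Rpl3, Rps20 and Rpl22l1 were higher with NAC in both scalings, and they were the members called higher by library totals. Rpl3, a large-subunit protein near the peptidyl transferase centre, was at 406, 408 and 389.8 FPKM in Control and 539.6, 510.1 and 517 FPKM in NAC. All NAC values lay above all Control values, with a log2 fold change of 0.38 ± 0.038 as deposited and 0.21 ± 0.037 by library totals. No other row of the table was described as its copy. Rps20, a protein of the small-subunit head, was at 651, 669.8 and 634 FPKM in Control and 806, 789 and 801 FPKM in NAC. Its log2 fold change was 0.29 ± 0.035 as deposited and 0.12 ± 0.033 by library totals, and its groups did not overlap in either. Quantile normalization took Rps20 out of the calls, with a log2 fold change of 0.098. By library totals its limma adjusted p was 0.034, against 0.010 for Rpl3 and 0.011 for Rpl22l1. In that scaling the members called higher fell from 3 to 2 without a filter, without trend and with the replicate block. Which of the 3 was lost there is not given.

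Paralogues are second genes with a protein of their own, and they did not all move with the family. Rpl22l1, the paralogue of Rpl22, was at 40.3, 41.1 and 42.8 FPKM in Control and 58.2, 55.7 and 63.4 FPKM in NAC. Its log2 fold change of 0.50 ± 0.056 as deposited and 0.33 ± 0.061 by library totals was the highest among the called members. The 1 member row grouped with L22 by its name, Rpl22l2, held 3 reads over the 6 libraries, and a row outside the name rule described as L22 held the others. Summed over both rows, L22 gave 92.5, 99.8 and 89.2 RPM in Control and 95.4, 91.9 and 89.4 in NAC, an NAC to Control ratio of 0.983.

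Rps27l, a paralogue of Rps27 known as a p53 target, went the other way. It was at 94.0, 101 and 94.6 FPKM in Control and 83.3, 84.5 and 85.6 FPKM in NAC, and every NAC library lay below every Control library. Its log2 fold change was -0.19 ± 0.040 as deposited and -0.36 ± 0.038 by library totals, with a call in both. The deposited call was lost without trend, with the replicate block and without any 1 library other than Control 2. Rps27 itself was at 322 ± 32.2 FPKM in Control and 333 ± 13.8 FPKM in NAC (SD, n = 3), with overlapping groups and log2 fold changes of 0.053 ± 0.075 and -0.12 ± 0.072.

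Rpl7l1 had log2 fold changes of 0.068 ± 0.056 as deposited and -0.10 ± 0.063 by library totals, with overlapping groups, beside 0.19 ± 0.039 and 0.021 ± 0.038 for its parent Rpl7. Rps4y2 was at 5.29, 5.55 and 6.57 FPKM in Control and 3.78, 4.10 and 5.52 FPKM in NAC. Its deposited groups overlapped (log2 fold change -0.32 ± 0.14), and it was called lower by library totals alone (-0.47 ± 0.14). The Rps4y2 row lies on chromosome 4, not Y, and whether it is a processed copy was not tested. The row named Rps4x, a relative of Rps4y2, also lies on chromosome 4, not X. It was at 91.8 ± 3.19 FPKM in Control and 102 ± 7.66 FPKM in NAC, with 0.15 ± 0.060 and -0.019 ± 0.062. This row held 20.5% to 22.8% of the reads described as S4, and a row outside the name rule held the others. With both rows summed, the NAC to Control ratio of RPM was 1.04, against 0.989 for the Rps4x row. Rpl10l, at 5.87 ± 0.214 and 6.29 ± 0.719 FPKM, had overlapping groups in both scalings, with log2 fold changes of 0.080 ± 0.085 and -0.070 ± 0.088. Rpl39l and Rpl3l did not reach 1 FPKM, the latter with 1 to 3 reads in each Control library and 4 to 8 in each NAC library.

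**Figure D3:**
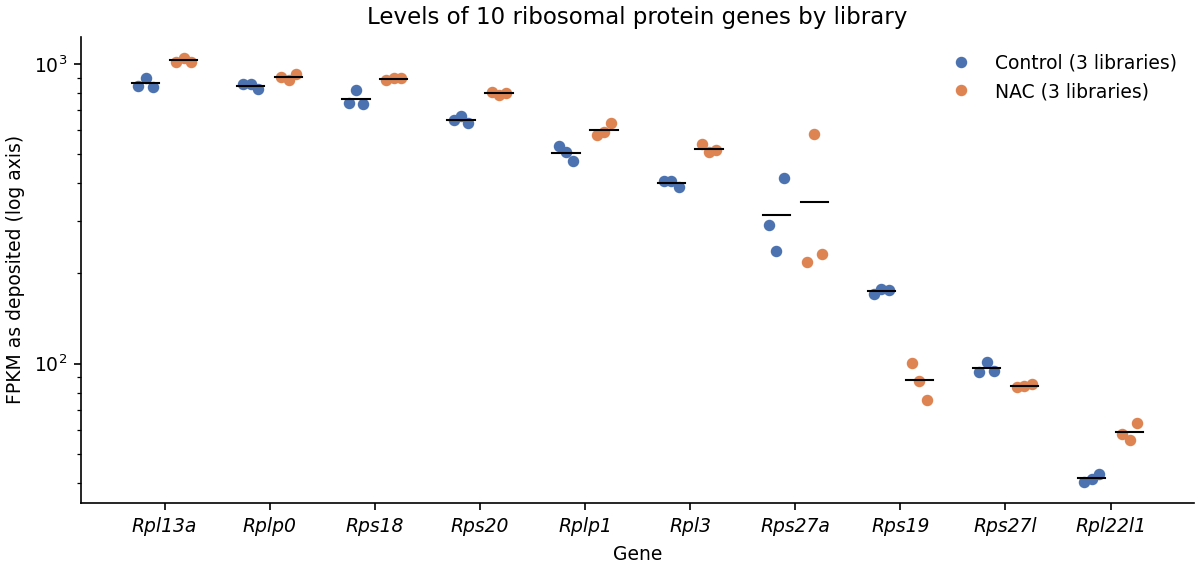
FPKM as deposited (log axis) of 10 ribosomal protein genes, with 1 point per library (Control in blue, NAC in orange, 3 libraries each) and a black line at each group's mean. Most genes lie slightly higher with NAC, Rps19 and Rps27l lie lower, and the libraries of Rps27a scatter within both groups.

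Rps19 was the abundant member that was lower with NAC. Rps19, a small-subunit protein mutated in Diamond-Blackfan anaemia, was at 171, 177 and 175 FPKM in Control and 101, 87.1 and 75.8 FPKM in NAC. The groups lay far apart, with a log2 fold change of -0.99 ± 0.095 as deposited and -1.17 ± 0.091 by library totals. A row described as S19-like on chromosome 9, LOC100910336, moved the opposite way. It held 273, 396 and 629 reads in Control and 949, 975 and 1370 in NAC (log2 fold change 1.44 as deposited, adjusted p = 0.031 by limma, and 1.27 by library totals, adjusted p = 0.020), while Rps19 held 1242, 1190 and 1357 reads in Control and 720, 624 and 503 in NAC. A second copy, LOC100362339 on chromosome 17, held 228, 208 and 233 reads in Control and 273, 276 and 386 in NAC.

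Summed over all S19 rows, the difference was within the spread between libraries. The sum was 135, 148 and 161 RPM in Control and 135, 129 and 169.5 in NAC, an NAC to Control ratio of 0.977, against 0.445 for the member rows alone. The member rows held 69.7%, 64.5% and 60.0% of the S19 reads in Control and 36.0%, 32.5% and 21.8% in NAC. The groups did not overlap in this share, while they overlapped in the total of S19 reads. The sources used here do not give how the authors' counting assigned reads that match several rows.

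Rps27a, which encodes ubiquitin fused to S27a, also ran opposite to a copy row, here between libraries of 1 group. Whether reads of 1 messenger RNA were divided between such rows was not tested, for S19 or for S27a. It was at 289, 237 and 416 FPKM in Control and 219, 584 and 232 FPKM in NAC, with NAC 2 and Control 3 high. Its processed copy Rps27a-ps1 mirrored it: Rps27a held 1874, 1419 and 2876 reads in Control and 1398, 3740 and 1376 in NAC, and the copy held 2601, 2810 and 1684 in Control and 3279, 1014 and 3159 in NAC. The S27a rows summed to 338, 339 and 324 RPM in Control and 314, 318 and 333 in NAC, a ratio of 0.965. The sum varied little, while the share of Rps27a itself ran from 29.9% to 78.7% of it.

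**Figure D4:**
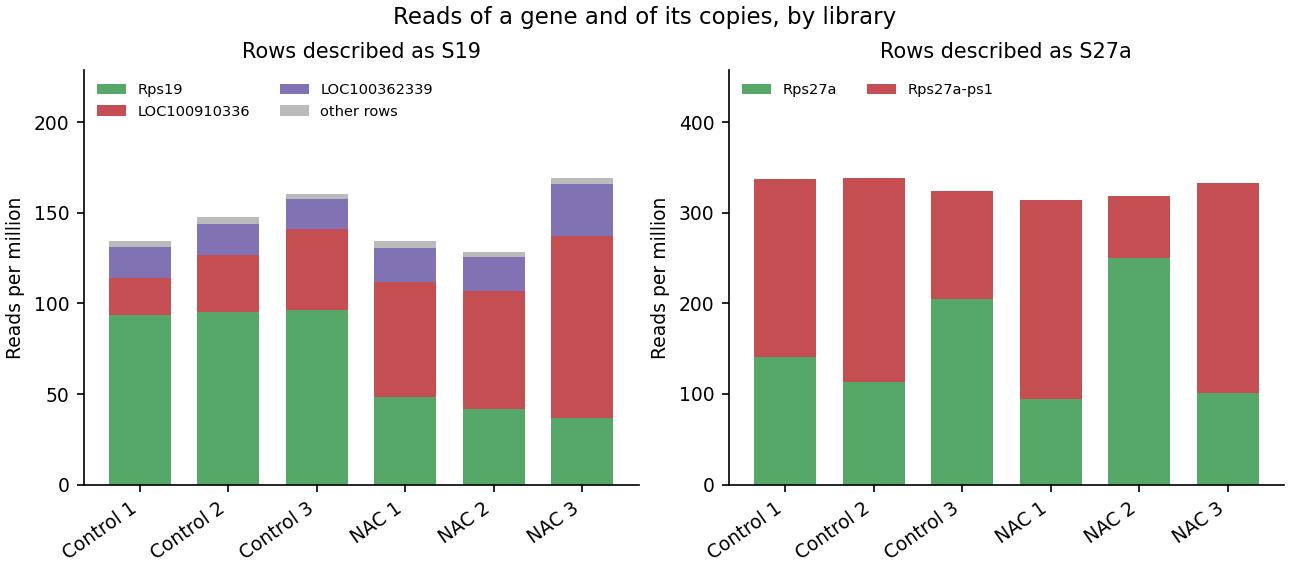
RPM (reads per 1000000 reads) in each library for all rows described as S19 (left) or S27a (right), stacked by row with the named gene at the bottom in green. The height of the bars is similar in Control and NAC, while the green part holds 60.0% to 69.7% of S19 reads in Control and 21.8% to 36.0% in NAC, and for S27a it changes from library to library in both groups.

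Several other members held little of the reads of their protein. Of the 76 proteins with a member row, 57 also had rows outside the name rule, and a further 9 proteins (among them L10, L21 and S9) were found only there. Among the 70 of these 76 proteins with at least 1000 reads, the members held under 50% of the reads for 10: L10a, L22, L23a, L7a, L8, P2, S19, S27a, S4 and S6. Even with all rows summed, some proteins stayed low. The Control means of L10a, L23a and L38 were 17.8, 17.1 and 6.5 RPM, beside 186 for L11 and 608 for L13a. Whether reads of such proteins are absent from the deposited values, and so from the shares above, was not tested. Rps6, the substrate of the S6 kinases downstream of mTORC1, was at 9.76, 7.18 and 8.15 FPKM in Control and 7.72, 6.53 and 5.76 FPKM in NAC. It was called lower by library totals (log2 fold change -0.44 ± 0.13) and not as deposited (-0.29 ± 0.13). All S6 rows together gave 27.6, 26.5 and 55.3 RPM in Control and 33.9, 59.4 and 20.5 in NAC, a spread that covered both groups. L10, held by a single row outside the rule, gave 479.9, 474 and 478 RPM in Control and 423, 408 and 426 in NAC, a ratio of 0.878.

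Single libraries stood out in rows of low level. An Rpl7a row held 565 reads in NAC 2 and 169 to 204 in the other 5 libraries, and an Rpl35a row held 35 reads in NAC 1 and at most 8 elsewhere. The highest log2 fold change as deposited, 0.86 ± 0.43, belonged to an Rpl39 row with 3 to 20 reads per library, while the abundant Rpl39 row, at 418 ± 28.3 and 489.7 ± 22.6 FPKM, had 0.23 ± 0.060. By library totals these 2 rows were at 0.71 ± 0.44 and 0.055 ± 0.057. An Rps29 row at 5.95, 7.81 and 6.38 FPKM in Control and 6.03, 3.87 and 5.11 FPKM in NAC was the remaining member called lower by library totals, at -0.52 ± 0.15. Over the 70 proteins with at least 1000 reads, members and copies summed, the NAC to Control ratio of RPM had a median of 1.00 and ran from 0.622 to 1.27. It was within 10% of 1 for 63 of the 70 with copies counted against 58 by members alone. By members alone L10a and L23a had no reads and so no ratio, and L22 and P2 held 3 reads each. All of these count as not within 10%.

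Rpl5 and Rpl11, which with 5S RNA can bind MDM2 outside the ribosome, stayed with the family. Rpl5 was at 419, 438 and 414 FPKM in Control and 475, 452 and 465 FPKM in NAC, with log2 fold changes of 0.13 ± 0.039 as deposited and -0.042 ± 0.036 by library totals. Rpl11 was at 45.7, 48.4 and 46.2 FPKM in Control and 53.6, 51.1 and 50.8 FPKM in NAC, with 0.15 ± 0.042 and -0.025 ± 0.039. The FPKM levels of these genes are not alike in length: the Rpl11 row has 3845 bases and the Rpl5 row 1069. In reads, Rpl11 held 2367 to 2608 and Rpl5 5963 to 6488 per Control library. Both Rpl5 and Rpl11 had NAC above Control without overlap as deposited and overlapping groups by library totals. Rpl26, another large-subunit protein with a known part in p53 control, was at 216, 215 and 211 FPKM in Control and 244, 245 and 255 FPKM in NAC, with 0.21 ± 0.034 and 0.039 ± 0.037.

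Genes that work with the ribosome were described from 7 lists that hold no member, with 187 tested genes in all. As deposited, 9 of these genes were called higher and 8 lower, where 6.08% and 2.72% of all tested genes were. By library totals 2 were called higher and 90 lower, where 3.67% and 29.2% of all tested genes were. As deposited, leaving out Control 1 gave 4 higher and 1 lower, Control 2 gave 11 and 7, Control 3 gave 4 and 0, NAC 1 gave 3 and 0, NAC 2 gave 2 and 0, and NAC 3 gave 6 and 2. The shares of all tested genes called with a library left out are not given. Of 23 tested TOP messenger RNAs that encode no ribosomal protein, 4 were called higher and 1 lower as deposited, with a median log2 fold change of 0.075, and by library totals 1 was called higher and 6 lower, with a median of -0.096. The elongation factor Eef1a1 was at 2668 ± 51.6 FPKM in Control and 3170.0 ± 24.3 FPKM in NAC (SD, n = 3), a log2 fold change of 0.25 (adjusted p = 0.011) as deposited and 0.074 (adjusted p = 0.16) by library totals. Eef2, the translocase, had 0.29 (adjusted p = 0.0039) and 0.12 (adjusted p = 0.027), and was called in both scalings. Tpt1 and Eef1g had 0.21 (adjusted p = 0.015) and 0.20 (adjusted p = 0.026) as deposited and were not called by library totals, at 0.033 and 0.025. The chaperonin subunit Cct4 was called lower in both, at -0.18 (adjusted p = 0.024) and -0.35 (adjusted p = 0.0037).

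Most ribosome biogenesis factors, which process and assemble ribosomal RNA in the nucleolus, lay below 0 as deposited, with 6 of 62 above it. The median of all tested genes was -0.0063 as deposited and -0.16 by library totals. Of 62 tested factors 6 were called lower and 0 higher as deposited by limma, where 2.72% and 6.08% of all tested genes were. At an unadjusted p under 0.05, 29 were lower and 0 higher, and by voom with median-of-ratios factors 9 were lower and 0 higher. The shares of all tested genes by these last criteria are not given, so nothing is read from these counts. The median log2 fold change was -0.18 as deposited and -0.34 by library totals, where 43 of 62 were called lower beside 29.2% of all tested genes. The NAC libraries lay below all Control libraries for 32 of the 62 as deposited, beside 15.9% of all tested genes. Ftsj3, a factor of pre-ribosomal RNA processing, was at 13.4 ± 0.897 FPKM in Control and 9.91 ± 0.966 FPKM in NAC, a log2 fold change of -0.41 (adjusted p = 0.032). The helicase Ddx18 had -0.31 (adjusted p = 0.028), Noc4l -0.32 (adjusted p = 0.036), Rrp12 -0.41 (adjusted p = 0.042), Wdr43 -0.28 (adjusted p = 0.045) and Sbds, a late 60S maturation factor, -0.19 (adjusted p = 0.043). All 6 were also called by library totals, with log2 fold changes of -0.57 to -0.36. The abundant nucleolar proteins Ncl and Dkc1 were not called as deposited, at -0.092 (adjusted p = 0.21) and -0.033 (adjusted p = 0.81). By library totals Ncl was called lower at -0.26 (adjusted p = 0.0087) and Dkc1 was not called at -0.20 (adjusted p = 0.055).

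Initiation factors, elongation and release factors, the RNA polymerase I machinery and the TOP and mTORC1 regulators held few calls as deposited. In that scaling 6.08% of all tested genes were called higher and 2.72% lower. Of 28 initiation factors 1 was called lower, Eif3a at -0.31 (adjusted p = 0.014; -0.48 by library totals, adjusted p = 0.0037), and 0 higher by limma, with 7 lower and 0 higher at an unadjusted p under 0.05 and 1 lower and 0 higher by voom. Of 16 elongation and release factors 0 were called in either direction by limma, with 3 lower and 0 higher at an unadjusted p under 0.05 and 1 lower by voom. The 16 tested genes of the RNA polymerase I machinery also gave 0 calls by limma, with 3 lower and 2 higher at an unadjusted p under 0.05 and 1 lower by voom. Of 25 TOP and mTORC1 regulators 2 were called higher as deposited: the translation repressor Eif4ebp1 at 0.17 (adjusted p = 0.030) and the mTORC1 inhibitor Ddit4 at 0.43 (adjusted p = 0.037), neither of them called by library totals (0.0029 and 0.26). By library totals 15 of 28 initiation factors, 7 of 16 elongation and release factors, 7 of 16 genes of the RNA polymerase I machinery and 10 of 25 regulators were called lower, where 29.2% of all tested genes were. The shares of all tested genes at an unadjusted p under 0.05 or by voom are not given, so nothing is read from those counts. No difference between lists was tested.

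Of 17 tested ribosome-linked proteins outside the name pattern, 3 were called higher and 0 lower as deposited by limma. Of all tested genes 6.08% were called higher and 2.72% lower. The 3 were Rpn2 of the oligosaccharyltransferase at 0.55 (adjusted p = 6.4e-04), and the translocon-associated Ssr1 and Ssr3 at 0.26 (adjusted p = 0.0097) and 0.23 (adjusted p = 0.020). By library totals 1 of the 17 was called higher and 2 lower, where 3.67% and 29.2% of all tested genes were. The 1 called higher was Rpn2, at 0.38 (adjusted p = 0.0024).

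**Figure D5:**
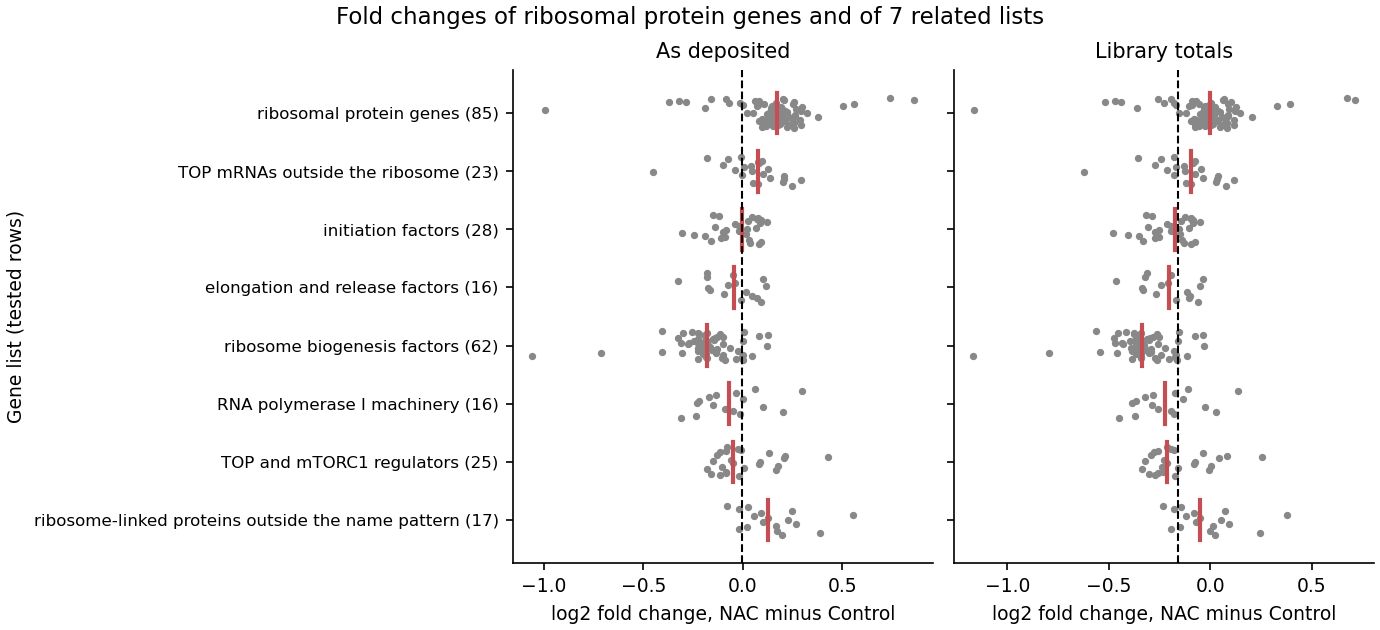
log2 fold change (NAC minus Control) of the 85 tested ribosomal protein gene rows and of the tested genes of 7 related lists, as deposited (left) and by library totals (right). Each point is a row of the table, red bars are list medians and the dashed line is the median of all tested genes: the ribosomal protein genes have a median of 0.17 on the left and -0.0023 on the right, and the ribosome biogenesis factors have -0.18 and -0.34.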

How the data were processed

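Per the labels' protocols, RNeasy extraction was followed by SMARTer mRNA-Seq library preparation. The authors deposited FPKM values per gene. The sources used here do not give their aligner, counter, strand setting or handling of reads that match several rows, so antisense partners cannot be told apart. The builds GRCm38 and mm10 come per the submitters' processing notes and are those of mouse, although gene identifiers are of rat. The columns headed N were taken as Control by elimination.

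Reads were recovered from FPKM times gene length, which in each library took whole multiples of a single step (100% of values within 0.01). The depths limit precision by counting error only. Values were tested as log2(FPKM + 1), which understates the fold of low genes, for the 12733 genes whose mean reached 1 FPKM. limma 3.58.1 in R 4.3.3 (eBayes with trend, two-sided) compared NAC with Control, adjusted by Benjamini-Hochberg over these genes, and was checked on simulated data. Replicates exceeded sampling noise (3.59 to 9.20 in chi-square per degree of freedom within groups).

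The members and lists were chosen with earlier results of these data known. Named members are the 8 most abundant, the 5 highest and 5 lowest fold changes, the paralogues with their parents and genes with a known second role. From each list the 2 most abundant genes and up to 3 called genes with the lowest adjusted p were taken. Copy rows, Eef1g, Cct4, Rrp12, Wdr43, Sbds and the printed promoters were chosen after their values were seen. Of 233 list and marker entries 9 were found through an older name and 8 had no row. Promoters came from RefSeq (GRCr8). Alternatives covered scaling, filters, pseudocount, variance model, voom on the recovered reads, the replicate block, copies and left-out libraries. Python 3.11.15, numpy 2.4.6, pandas 2.3.3 and matplotlib 3.10.9 were used.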

Additional observations from a re-analysis of the deposited data

How the results depend on the processing

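The median log2 fold change of the members, 0.17 as deposited, was -0.0023 by library totals, -0.0022 by voom on library totals and 0.0028 after quantile normalization, and it stayed between 0.15 and 0.20 without any 1 library. Members called higher and lower (31 and 2) were 3 and 5 by library totals, 3 and 3 by voom on them, 2 and 3 after quantile normalization, 12 and 2 without a filter, 6 and 1 without trend, 4 and 1 at an adjusted p under 0.01, 31 and 1 with copies added, 29 and 1 among members of at least 100 FPKM, and 3 to 36 and 1 to 2 without 1 library. By library totals (3 and 5) they were 3 and 2 with copies added (an alternative chosen after seeing the data), 2 and 2 without a filter, 2 and 2 without trend, and 2 to 5 and 2 to 4 without 1 library. Genes of the related lists called higher and lower (9 and 8) were 2 and 90 by library totals, 3 and 98 by voom on them, 14 and 13 by voom with median-of-ratios factors, 4 and 8 after quantile normalization, 5 and 3 without a filter, 4 and 5 without trend, 3 and 0 at an adjusted p under 0.01, and 2 to 11 and 0 to 7 without 1 library. The replicate block gave 8 and 1 members as deposited and 4 and 1 related genes, but same-numbered libraries did not deviate together (correlations 0.063, 0.059 and -0.050), so the numbers were not taken as pairs. After quantile normalization Rps14 was at -0.019 and Tpt1 at -0.015, on the other side of 0. Median-of-ratios scaling, a pseudocount of 0.1 and robust variance moved no count past 1.5 times. The share of reads differed by -0.011 to 0.014 percentage points between groups over all its alternatives. The cause of these differences was not tested. Apart from the library totals fit, shares of all tested genes called under these alternatives are not given, so changes in these counts are not read as particular to the members or lists.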
